A study of Sus scrofa with 96 samples.

Results

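Synovium of minipig knees left untreated after transection of the anterior cruciate ligament (ACL) was compared with synovium of control knees, as labelled by the sample titles. The comparison held 23 of the 96 libraries of the series, 11 from ACLT knees and 12 from CON knees. All animals were adolescent Yucatan minipigs whose ACL had been cut in 1 knee. An ACLT knee (ACLT 1 to 11) had its ACL cut and received no further surgery. A CON knee was the intact opposite knee of an animal operated on the other side, so the CON animals also carried an injured joint, and their operated knees had been left untreated, reconstructed (RECON) or repaired with an extracellular matrix scaffold (REPAIR). Tissue was taken in all groups at 52 weeks after surgery from the synovium next to the medial meniscus, so the data hold 1 late time point and 1 region of the joint. ACLT 12, which the study's list of libraries does not hold, was left out of the tests, except for an alternative fit that added it.

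Synovium is the thin tissue that lines a joint and makes its lubricating fluid. It holds a lining of fibroblasts and macrophages over a looser layer with vessels, fat and immune cells. After ligament injury it can become inflamed and fibrotic, and such change accompanies the loss of cartilage in post-traumatic osteoarthritis. In bulk tissue, fewer cells of a type and less RNA per cell cannot be told apart. The counts were made per Ensembl transcript, and no table used here pairs these transcripts with genes, so the results are described by transcript, level and library.

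The libraries held 8211346 to 19992966 counts in ACLT (median 10848743) and 7483049 to 17481507 in CON (median 12555853), a difference that did not pass a two-sided permutation test (adjusted p = 0.41 over 3 measures). ACLT libraries had a count for fewer transcripts, with a median of 27979 against 28763.5 in CON (adjusted p = 0.0447, permutation test). Their 10 most abundant transcripts took a larger share of the counts, with a median of 20.2% against 17.5% (adjusted p = 0.0471, permutation test), and both of these values became 0.0293 without CON 11. RNA integrity, as listed by the study, was lower on average in the ACLT libraries. The permutation tests adjusted for neither depth nor RNA integrity. All 24 CON and ACLT synovium libraries, ACLT 12 included, were closer to the mean CON synovium profile than to the mean CON cartilage profile, with a lowest correlation of 0.744 for the first and a highest of 0.664 for the second.

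CON 11 stood apart from the other CON libraries and lay among the ACLT libraries. To place each library, the transcripts that differed between ACLT and CON were called without it, and its mean log2 level over them, with the sign turned for lower transcripts, was set on a scale where 0 is the CON mean and 1 is the ACLT mean. On this scale, the other 11 CON libraries lay between -0.42 and 0.34 (median -0.030), and CON 11 lay at 1.05. The ACLT libraries ranged from 0.43 (ACLT 10) through a median of 0.90 to 1.25 (ACLT 11), so that no ACLT library overlapped the 11 other CON libraries. For the 4 animals that gave both a CON and an ACLT knee, the other knee stayed in the fit. Their positions were thus held out by library and not by animal. The CON knees of these animals, CON 1 to 4, lay between 0.15 and 0.23. The remaining controls other than CON 11 lay between -0.42 (CON 12) and 0.34 (CON 5). CON 11 was the highest CON library for 56.4% of the transcripts later called higher after ACLT, against 16.9% of all transcripts tested. Likewise, it was the lowest CON library for 52.5% of those called lower, against 13.8% of all tested. By the study's list, the operated knee of the CON 11 animal was a REPAIR knee and not one of the ACLT knees. CON 11 kept its label here, and the main results are given with and without it. It was singled out for its place in this same comparison. Larger numbers of differences without it follow in part from that choice and are no separate check.

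**Figure D1:**
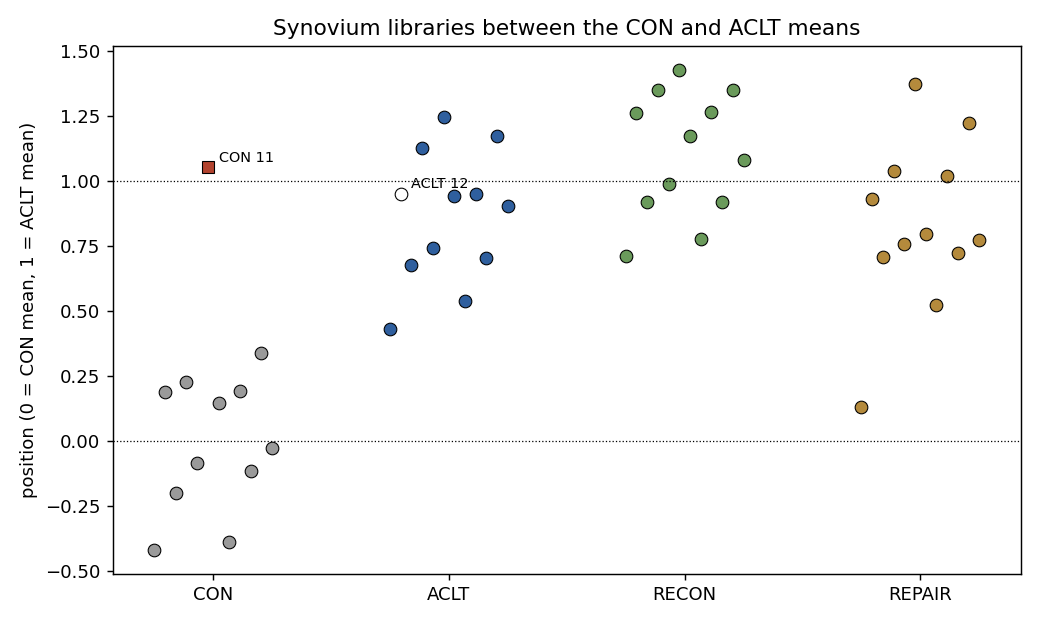
Position of each synovium library (points, spread sideways only for legibility) on a scale from the CON mean (0) to the ACLT mean (1), over transcripts called without that library for CON and ACLT, and over the calls of all 23 libraries for ACLT 12, RECON and REPAIR. CON 11 (red square) lies at 1.05, among the ACLT libraries, and the 11 other CON libraries lie below every ACLT library.

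Untreated transection was followed by higher levels of 1215 transcripts and lower levels of 996 in synovium, 2211 of the 24291 tested (9.10%; 5.00% higher and 4.10% lower) in a quasi-likelihood test of edgeR, adjusted by the Benjamini-Hochberg method. Most of these differences were moderate. The median log2 fold change was 0.62 for the higher transcripts (quartiles 0.43 and 0.96) and -0.59 for the lower ones (quartiles -0.87 and -0.42), against -0.0079 for all transcripts tested. Among the calls, 285 transcripts were higher and 173 lower by more than 1 log2 unit, and 58 were higher and 30 lower by more than 2. A large difference alone did not make a call, since 947 transcripts differed by more than 1 log2 unit and missed the threshold. Without CON 11, 3401 of 24039 transcripts passed (14.1%), 1859 higher (7.73%) and 1542 lower (6.41%). They included 1203 of the 1215 higher and 989 of the 996 lower transcripts, whose median log2 fold changes became 0.67 and -0.62. With RNA integrity as a covariate, 974 transcripts passed. They included 517 of the 1215 higher and 397 of the 996 lower transcripts, and the median log2 fold changes of all 2211 became 0.57 and -0.52.

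**Figure D2:**
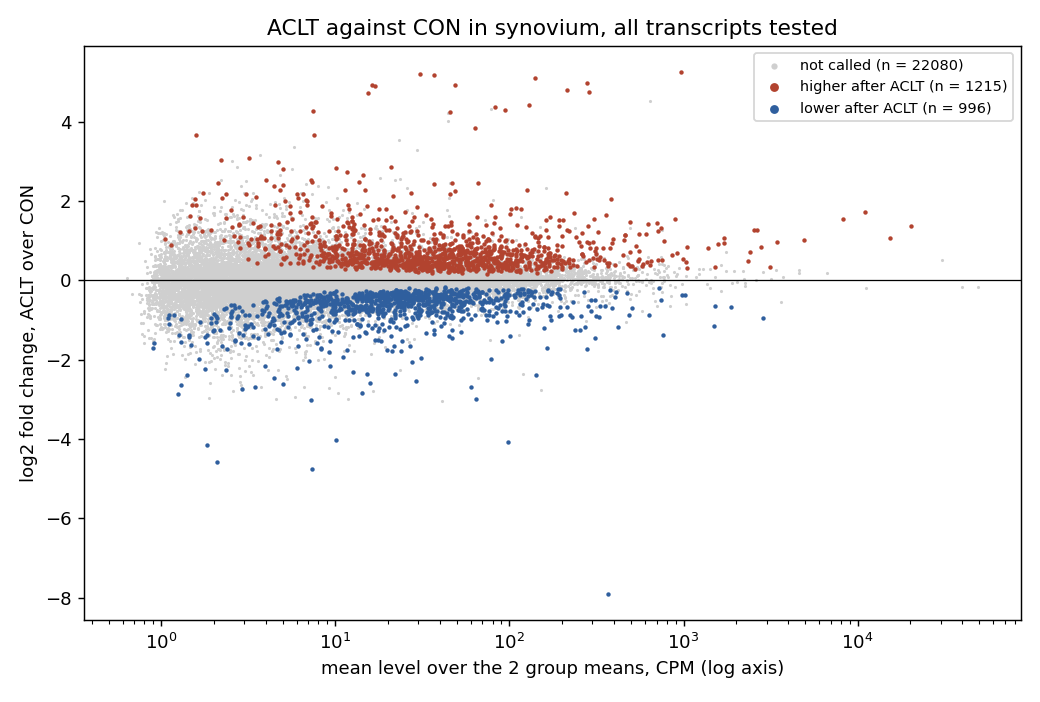
Log2 fold change of ACLT over CON against the mean level in CPM (log axis), 1 point per transcript tested. The 1215 higher (red) and 996 lower (blue) transcripts lie mostly within 1 log2 unit of 0, and a separate band of higher transcripts lies above 4 log2 units.

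The share of transcripts called grew with their level. Levels are given as CPM, counts scaled to a common library size. Of transcripts with a mean level over 100 CPM, 23.9% were called, 242 higher and 93 lower. Between 10 and 100 CPM the share was 12.5% (800 higher, 642 lower), between 1 and 10 CPM it was 3.88% (173 higher, 259 lower), and under 1 CPM it was 0.889%. Of the 10 most abundant transcripts of these libraries, 5 were called higher and 0 lower, and among the 100 most abundant the numbers were 28 and 9. The higher transcripts together held between 17.3% and 34.9% of the CPM in ACLT (median 21.3%). In CON they held between 8.35% and 13.7% in 11 libraries and 24.3% in CON 11. The lower transcripts held between 3.33% and 4.85% in ACLT (median 3.93%), between 5.61% and 7.60% in the same 11 CON libraries, and 4.42% in CON 11. These sums describe transcripts chosen for their difference and were not tested. The median length was 3352 bases for higher, 3930 for lower and 3187 for all tested transcripts.

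Very few transcripts separated the groups fully. The lowest ACLT library lay above the highest CON library for 7 transcripts (0.0288% of those tested), and the highest ACLT library lay below the lowest CON library for 4 (0.0165%). Without CON 11, which was singled out for lying on the ACLT side, these numbers were 96 (0.395%) and 42 (0.173%). The median SD of log2 CPM was 0.451 in ACLT and 0.395 in CON, or 0.373 without CON 11, and this difference in spread was not tested.

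ENSSSCT00000050052.3 (4858 bases) had the smallest p-value of all transcripts tested. Its level was 20.4, 26.2 and 39.7 CPM in CON (lowest, median and highest library) and 55.2, 61.9 and 79.6 CPM in ACLT. All 11 ACLT libraries lay above all 12 CON libraries, and CON 11 lay with the other controls for this transcript. The level was 2.36-fold higher after ACLT (log2 fold change 1.24, SE 0.10, adjusted p = 2.17e-07 in edgeR's quasi-likelihood test). ACLT 12, outside the test, reached 102 CPM. In the 4 animals that gave both a CON and an ACLT knee, the difference was 0.50, 1.18, 1.54 and 1.16 log2 units, and its sign follows from the separation of the groups in the same libraries.

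ENSSSCT00000045402.3 (5531 bases) rose less but with little spread. It was measured at 53.8, 61.7 and 82.2 CPM in CON and at 81.1, 94.7 and 108 CPM in ACLT. The highest CON value belonged to CON 11 and the next was 72.6 CPM, so that 10 of 11 ACLT libraries lay above every control and all 11 above the controls other than CON 11. The level was 1.48-fold higher after ACLT (log2 fold change 0.57, SE 0.070, adjusted p = 0.000151 by edgeR's quasi-likelihood test), and 0.61 log2 units higher without CON 11.

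Among the lower transcripts, ENSSSCT00000094781.1 (1968 bases) showed the smallest p-value. CON libraries measured 19.2, 109 and 204 CPM, and ACLT libraries 2.49, 14.3 and 24.3 CPM. CON 11 was the lowest control, and the next control lay at 56.4 CPM, above all 11 ACLT libraries. The level was 7.93-fold lower after ACLT (log2 fold change -2.99, SE 0.32, adjusted p = 3.90e-05, edgeR's quasi-likelihood test). Without CON 11 the log2 fold change was -3.09. Within the 4 animals with both knees, whose libraries were part of the test that chose it, the ACLT knee differed by -2.62, -3.27, -1.66 and -2.20 log2 units.

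ENSSSCT00000014662.5 (1098 bases) was also lower after ACLT, without overlap of the groups. Its CON levels were 133, 218 and 336 CPM and its ACLT levels 57.7, 93.1 and 129 CPM, and CON 11 was again the lowest control. The level was 2.29-fold lower (log2 fold change -1.20, SE 0.15, adjusted p = 0.000151 by edgeR's quasi-likelihood test). ACLT 12 measured 127 CPM, within the ACLT range.

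**Figure D3:**
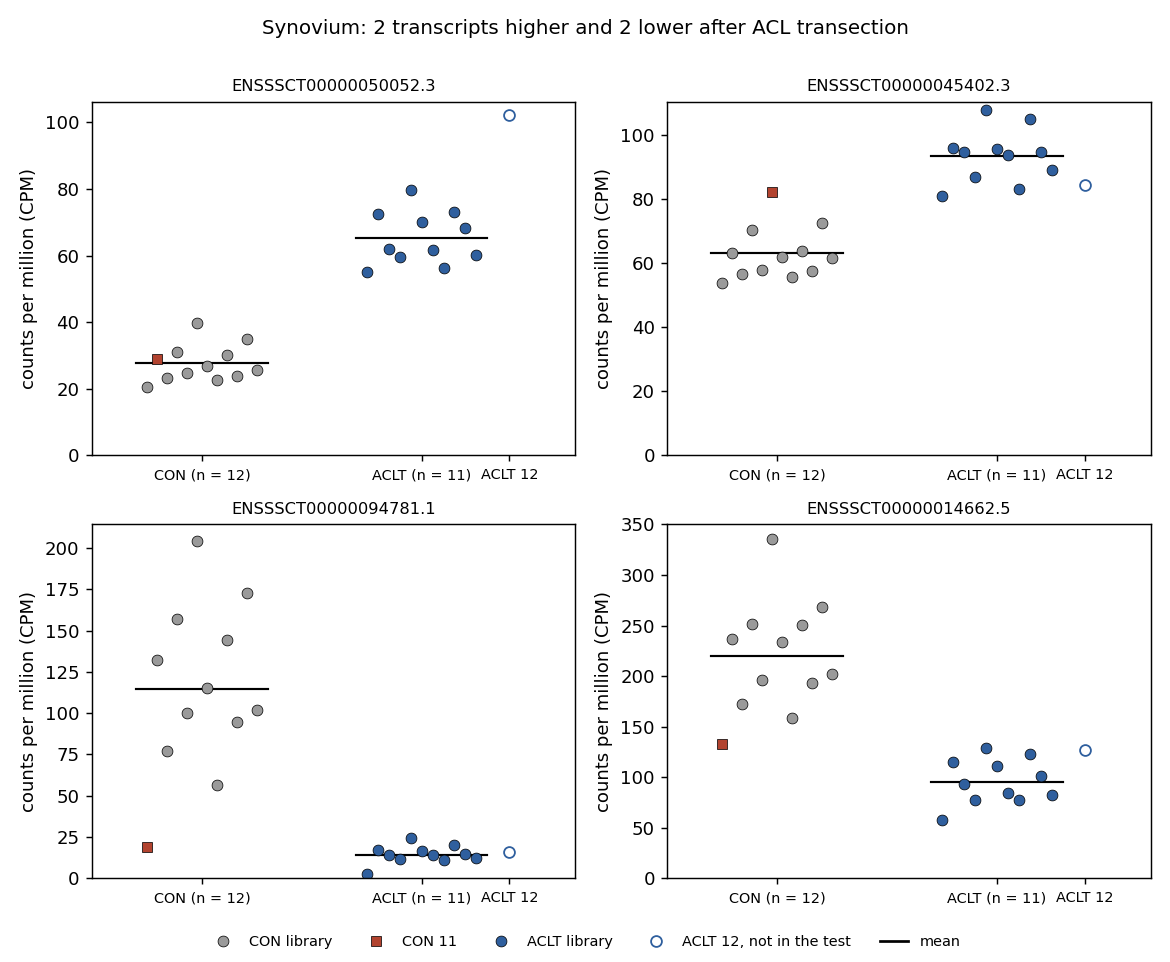
Level in CPM of the 2 higher and 2 lower transcripts with the smallest p-values, 1 point per synovium library, with the group mean as a line and an axis from 0. CON 11 (red square) lies with the controls for ENSSSCT00000050052.3 and nearest to the ACLT libraries for the other 3, and ACLT 12 (open circle) was not in the test or the mean.

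The largest rises came from a few ACLT knees and not from the group as a whole. In all, 16 transcripts were called higher by more than 4 log2 units, and 15 of them had the same 3 highest ACLT libraries, ACLT 1, 2 and 8. The summed level of these 15 transcripts was 16632 CPM in ACLT 1, 12186 CPM in ACLT 2 and 20124 CPM in ACLT 8. It was 1733 CPM in ACLT 9, 355 CPM in ACLT 5 and 162 CPM in ACLT 11, and only 0.67 to 11.5 CPM in ACLT 3, 4, 6, 7 and 10. CON libraries lay at 7.02, 97.8 and 667 CPM (lowest, median and highest), so 4 ACLT libraries lay above every control while 5 lay below the CON median. ACLT 12 measured 5.29 CPM. The same transcripts summed to over 1000 CPM in 2 of 12 RECON and 4 of 12 REPAIR libraries and in 0 of 12 CON libraries.

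These 15 transcripts were 261 to 1441 bases long, with log2 fold changes of 4.25 to 5.25 and adjusted p-values of 0.0137 to 0.0499 in edgeR's quasi-likelihood test. For 6 of them, the median ACLT library was below the median CON library, and these were the only 6 of the 1215 higher transcripts for which the ACLT median was not above the CON median. Of the 15, 7 kept their call without ACLT 1, 8 without ACLT 2, 8 without ACLT 8 and 11 without CON 11. By limma-voom, which works on log values, 0 of the 15 were called, and by DESeq2 14. Across all transcripts tested, 0.564% had ACLT 1, 2 and 8 as their 3 highest ACLT libraries. The set was picked for its fold changes, so these values are a description and carry no test of their own.

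**Figure D4:**
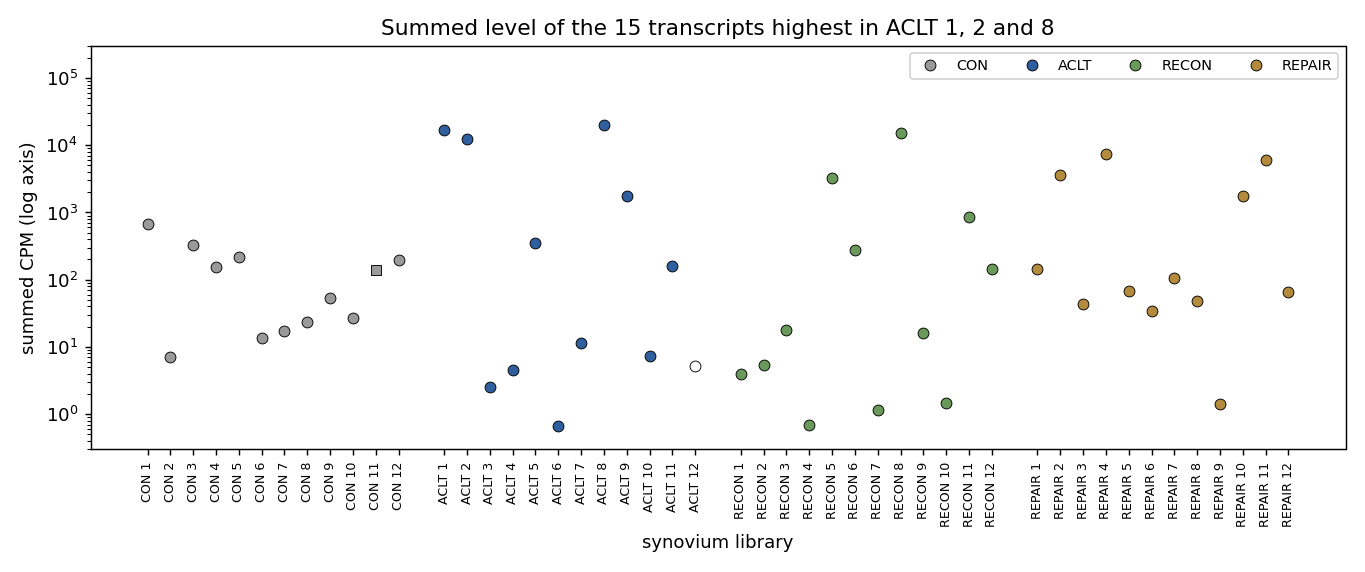
Summed level in CPM (log axis) of 15 transcripts called higher after ACLT by more than 4 log2 units, 1 point per synovium library; the square is CON 11 and the open circle ACLT 12. ACLT 1, 2 and 8 lie between 12186 and 20124 CPM, and ACLT 3, 4, 6, 7 and 10 lie below the CON median of 97.8 CPM.

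A further 6 transcripts were called lower by more than 4 log2 units, and the extreme one rested on a single control. It was at 8684 CPM in CON 6 and at 0.20 to 30.6 CPM in the 11 other CON libraries, against 0.58 to 8.52 CPM in ACLT. Its log2 fold change of -7.91 became -1.60 without CON 6, and the call was lost (adjusted p = 0.132, edgeR's quasi-likelihood test). The other 5 were low throughout ACLT, where they summed to 0 to 22.6 CPM, against 57.3 to 405 CPM in the CON libraries other than CON 11. CON 11 had 4.88 CPM and was listed at 0 counts for 4 of these 5.

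Of the 58 transcripts higher by more than 2 log2 units, 32 were called with every single library left out in turn, and of the 30 lower ones 21. Over all calls, 777 of the 1215 higher and 581 of the 996 lower transcripts held in each of the 23 fits that left out 1 library. The number of calls ranged from 1572 without ACLT 3 to 2592 without ACLT 10, apart from the 3401 without CON 11, and higher transcripts made up 53.7% to 57.5% of them. ACLT 11 had the highest level among the ACLT libraries for 20.8% of the higher transcripts and the lowest for 26.5% of the lower ones. The same shares over all transcripts tested were not taken, so these values do not set the called transcripts apart. ACLT 11 also had the fewest transcripts with a count (25241) of the 23 libraries. Its 10 most abundant transcripts took the largest share of the counts (26.2%). Altogether, 2006 transcripts (1138 higher and 868 lower) were called by edgeR, DESeq2 and limma-voom alike. Past 2 log2 units, these were 32 of the 58 higher and 10 of the 30 lower transcripts.

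Both a CON and an ACLT knee came from 4 animals, which allowed the direction to be read within an animal (CON 1 with ACLT 7, CON 3 with ACLT 1, CON 2 with ACLT 11, and CON 4 with ACLT 5). When transcripts were called in the 15 libraries of the other animals, 161 were higher and 107 lower, 268 of the 25056 tested in that fit. In the 4 held-out animals, 78 of these 161 transcripts (48.4%) were higher in the ACLT knee of every animal. This held for 14.7% of all 24291 transcripts of the main test. Likewise, 66 of the 107 (61.7%) were lower in every animal, against 13.9% of all tested. By animal, 71.4% to 89.4% of the 161 were higher, against 46.4% to 51.9% of all tested, and 78.5% to 90.7% of the 107 were lower, against 47.9% to 51.6%. A fit of these 8 libraries with the animal as a block called 0 of 24022 transcripts by edgeR's quasi-likelihood test, with 3500 at an unadjusted p under 0.05 and a smallest adjusted p of 0.0643. The 2211 calls of the 23 libraries used these same 8, so their direction in this fit is no separate check. The held-out transcripts differed least between the knees of CON 4 and ACLT 5, with medians of 0.18 and -0.28 log2 units.

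Cartilage of the same knees, from the medial femoral condyle, was used to ask where the synovium differed from it. In cartilage, 0 of 23292 transcripts (0.00%) passed between ACLT and CON by edgeR's quasi-likelihood test, with 1271 at an unadjusted p under 0.05 and 50 called by DESeq2. The transcripts called higher in synovium had a median log2 fold change of 0.016 in cartilage, and 616 of the 1141 tested there were positive (54.0%, against 50.5% of all). The transcripts called lower in synovium had a median of 0.018 in cartilage, and 370 of 836 were negative (44.3%, against 49.5% of all).

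The difference between tissues was tested as an interaction, the change in synovium minus the change in cartilage. It passed for 940 of 27733 transcripts (3.39%) by edgeR's quasi-likelihood test, with the change more positive in synovium for 403 (1.45%) and more negative for 537 (1.94%). Among the synovium calls, 324 of 1215 higher and 290 of 996 lower transcripts passed in the direction of their change in synovium. Of all 24291 transcripts tested in synovium, 375 passed as more positive and 504 as more negative. The calls and the interaction used the same synovium libraries, so the direction of the calls is no separate check. With the knee as a block, 712 transcripts passed (2.57%), and the majority turned to a more positive change in synovium, with 431 (1.55%) against 281 (1.01%). Without the knee of CON 11, 1614 transcripts passed (794 and 820).

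The interaction held for ENSSSCT00000050052.3, with a difference of 1.30 log2 units (SE 0.27, adjusted p = 0.00644 by edgeR's quasi-likelihood test), and its cartilage change was -0.074 log2 units (adjusted p = 0.999). For ENSSSCT00000014662.5 the difference was -2.98 log2 units (adjusted p = 0.00873). More than the synovium change of -1.20 entered it, since this transcript was low in cartilage, with 0.24, 1.19 and 5.51 CPM in CON and 0.48, 3.02 and 29.3 CPM in ACLT (lowest, median and highest), a cartilage change of 1.78 log2 units that did not pass (adjusted p = 0.765, edgeR's quasi-likelihood test). For ENSSSCT00000094781.1 the difference was -4.22 log2 units (adjusted p = 0.0120). It was not tested in cartilage alone, where it was removed by the filter on low counts, with a median of 0.50 CPM in CON and 0.88 CPM in ACLT and some libraries at 0, so it entered this test through its synovium level. Both of these differences missed the threshold with the knee as a block (adjusted p = 0.133 and 0.0615, edgeR's quasi-likelihood test). ENSSSCT00000045402.3 did not pass (difference 0.29 log2 units, SE 0.15, adjusted p = 0.344).

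Levels in CON cartilage were then set beside those in CON synovium. In CON knees, 37.6% of the transcripts called lower after ACLT were at least 2-fold less abundant in cartilage than in synovium, against 21.5% of those called higher and 19.0% of all tested. At least 2-fold more abundant in CON cartilage were 5.72% of the lower, 16.0% of the higher and 8.08% of all transcripts tested. These shares rest partly on the same CON synovium libraries as the calls and were not tested.

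**Figure D5:**
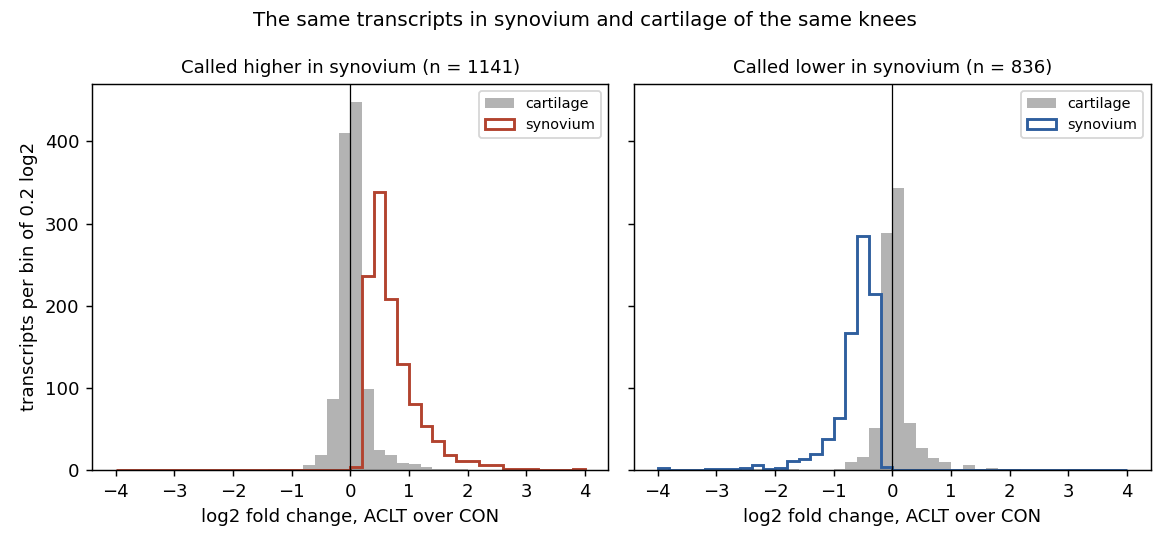
Distribution of log2 fold changes of ACLT over CON in synovium (outline) and in cartilage of the same knees (grey) for transcripts called higher (left, 1141 also tested in cartilage) or lower (right, 836) in synovium, with values past 4 units drawn in the end bins. The cartilage values centre on 0 (medians 0.016 and 0.018), and the synovium values lie on 1 side because they chose the transcripts.

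The other operated groups were compared with the same CON libraries, so the 3 comparisons are not independent and only their values are set side by side. In 1 fit of 47 synovium libraries, RECON against CON called 4965 of 27861 transcripts (17.8%) and REPAIR against CON called 1919 (6.89%) by edgeR's quasi-likelihood test. The transcripts called higher after ACLT had a median log2 fold change of 0.62 in ACLT, 0.68 in RECON and 0.51 in REPAIR. Those called lower had medians of -0.59, -0.64 and -0.47. The ACLT medians came from the fit of 23 libraries that chose these transcripts, and the RECON and REPAIR medians from the fit of 47. On the scale from the CON mean to the ACLT mean, RECON libraries lay between 0.71 and 1.43 (median 1.13) and REPAIR libraries between 0.13 and 1.37 (median 0.78). ENSSSCT00000094781.1 measured 6.07, 15.6 and 18.9 CPM in RECON (lowest, median and highest) and 6.90, 13.8 and 127 CPM in REPAIR. REPAIR 7 (127 CPM) and REPAIR 6 (109.4 CPM) lay above the CON median of 108.6 CPM.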

How the data were processed

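Synovium RNA of Yucatan minipig knees was sequenced as 100-bp paired-end reads after ribosomal RNA depletion. Per the labels, the authors checked reads with FastQC 0.11.9 and MultiQC 1.12 and quantified them with Salmon 1.8.0 against Sscrofa11.1. The deposited expected counts (estimated reads per Ensembl transcript, not normalized) were rounded to whole numbers here. Deposited lengths were used for description and effective lengths for an alternative, and deposited TPM values were not used. Salmon divides reads between similar transcripts, and the uncertainty of that division was not used.

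Groups came from the sample titles. The quasi-likelihood test of edgeR 4.0.16 (glmQLFit, glmQLFTest) was run under R 4.3.3 on transcripts kept by filterByExpr at a minimum count of 10, with TMM scaling. Transcripts with a Benjamini-Hochberg adjusted p under 0.05 were called. CPM values are counts scaled to a common library size by TMM factors; the factors of libraries outside the test were taken against the same reference library. Single values were compared by a two-sided permutation test with 100000 resamples. Alternatives used DESeq2 1.42.0, limma 3.58.1 (voom), RNA integrity number (RIN) and sex from the study's library list, and left-out libraries. The procedure was also run on simulated counts with known changes. These were drawn independently for each library, with no shared animals, RNA integrity differences or outlying control, so that run does not bear on those features.

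No table used here pairs these transcripts with genes, so planned gene lists and cell type markers were not analysed here. The 4 named transcripts were the 2 in each direction with the smallest p among transcripts whose CON and ACLT means both reached 1 CPM. The groups, lists and tests were chosen with earlier results of these data known. Leaving out each synovium library in turn was planned, but singling out CON 11 was chosen after seeing the data. The same holds for fits without CON 11 that included cartilage, other operated groups or another change. It also holds for the 8-library omission and the description of the transcripts past 4 log2 units.

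Same-numbered CON and ACLT libraries came from different animals by the study's list, which gives 4 animals with a CON and an ACLT knee. Deviations from the group means correlated at 0.0707 to 0.128 in these 4 pairs (mean 0.104), against a mean of 0.000154 over all CON and ACLT pairs. The 11 same-numbered pairs ranged from -0.0672 to 0.128 (mean 0.0250), so their highest value was as large. Totals of 7483049 to 19992966 counts per library set the precision of low transcripts. Within a group, each library came from another animal, so p-values cover the spread between animals. The main test did not model the 4 animals that gave a knee to both groups. A limma-voom fit with the animal as a random block estimated a correlation of 0.263. It called 3159 transcripts, with 2095 of the 2211 main calls among them.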

Additional observations from a re-analysis of the deposited data

Results flagged for a closer look

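The change after ACLT differed between synovium and cartilage for 940 of 27733 transcripts by the interaction test of edgeR (quasi-likelihood, adjusted p under 0.05), which put it among the results for a closer look. They held 324 transcripts called higher and 290 called lower in synovium with the difference in the same direction. Another 325 were not called in synovium, and some of these were not tested there. Whether most differences were positive, that is, a more positive change in synovium, depended on the knee block (403 of 940 without it, 431 of 712 with it).

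ACLT 12 was not in the main test, and its position on the scale from the CON mean to the ACLT mean was 0.950, above all CON libraries except CON 11. It lay above the CON mean for 88.4% of the transcripts called higher, against 47.6% of all tested, and below it for 86.8% of those called lower, against 52.4% of all tested. The CON libraries of this mean also chose the transcripts, and these shares were not tested. ACLT 12 had a count for 24699 transcripts, fewer than any of the 23 libraries tested (lowest 25241). Its 10 most abundant transcripts took 30.5% of the counts, more than in any of the 23 (highest 26.2%).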

How the results depend on the processing

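The 2211 synovium calls became 3327 by DESeq2 (4488 without CON 11), 3845 with 2 factors of unwanted variation, 974 with RIN as a covariate (2157 without CON 11), 1259 without the 4 CON libraries of animals that also gave an ACLT library, 268 without the 8 libraries of the animals with both knees, and 0 in those 8 libraries with the animal as a block. A replicate block on the label number, which paired different animals (11 pairs, correlations of deviations from -0.0672 to 0.128, 2 of 11 ACLT libraries closest to their own number), gave 1466. Leaving out 1 library each gave 1572 to 3401. DESeq2 size factors, both filters, limma-voom, limma-voom with the animal as a random block, ACLT 12, sex, effective length and the fits of 47 or 94 libraries stayed within 1.5 times. In cartilage the 0 calls became 1 without a filter and 50 by DESeq2. The interaction's 940 became 1499 without a filter, 1487 by DESeq2, 1614 without knee CON 11 and 1582 with both that omission and the replicate block. For REPAIR, 1919 calls became 3028 without CON 11. The 4 named transcripts kept their direction in all 42 alternatives each. They were chosen in the main fit and the alternatives reused its libraries, so this is no separate check. All 4 lost their call in the 8-library fit with the animal as a block (adjusted p = 0.118 to 0.238), and ENSSSCT00000014662.5 also did in the fit of 94 libraries (adjusted p = 0.0668, edgeR's quasi-likelihood test). Counts summed per gene were not run. Some of these fits held fewer libraries, and the causes of the differences were not tested.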
